A study of Mus musculus with 8 samples.

Results

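Basement membrane genes were followed in mouse embryonic stem cell lines with and without mutations of Gtf2i and Hprt. The set held 10 genes, namely the laminin chain genes Lama1, Lama4, Lama5, Lamb1, Lamb2 and Lamc1, the nidogen genes Nid1 and Nid2, the perlecan gene Hspg2 and Sparc. They were chosen by name, as probe sets whose only gene symbol in the platform annotation was 1 of these 10. This gave 22 probe sets of the 45101 on the array, for 10 of the 18193 genes with a probe set of their own. All 10 genes were tested, through 20 of the 22 probe sets. The other 2, of Lama4 and Lama5, lay under the filter level on every array.

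A basement membrane is a thin sheet of matrix under epithelia and around many other cells. Laminins are trimers of an α, a β and a γ chain that assemble into its first network, collagen IV forms a second network, and nidogens and the heparan sulfate proteoglycan perlecan join both. In the early embryo and in stem cell cultures, basement membrane is laid down largely by primitive and parietal endoderm, while fibroblasts also secrete several of its chains.

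The arrays, Affymetrix mouse expression arrays, fell into 4 groups of 2, labelled as biological replicates. Whether these were separate cultures is not said, and the p-values speak to the scatter of these arrays alone. The wild-type label names neither a mutation nor a line. The Hprt knockout was labelled HPRT -/-, with no Gtf2i mutation. The trap line was a gene-trap derivative of AB2.2 cells labelled as HPRT -/- and GTF2I +/-, and the exon 2 mutant, a gene-targeted derivative of R1 cells, was heterozygous for a deletion of exon 2 of Gtf2i. Gtf2i encodes the transcription factor TFII-I, and Hprt a purine salvage enzyme. The protocol gives feeder cells and leukaemia inhibitory factor for all lines. On the arrays of the Hprt knockout, feeder fibroblast markers were far lower than in any other group (values below). Whether its cells were taken off feeders is not said. Every comparison with that group thus also compares cultures with very different feeder signal. Neither mutant line has a control labelled as its own parent line, so a difference of line or batch cannot be told apart from the mutation. No label gives an age or passage, and each mutant label names a single line.

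The start-site regions of 3 members are shown because these genes moved apart between the lines: Nid1 and Sparc had their lowest level in the Hprt knockout, and Lama5 its highest there. RefSeq (GRCm38.p6) gave a sequence for 6 of the 10 members. The 250 bases before the start are printed, from chr13:13437352-13437601 (plus strand) for Nid1, chr11:55420081-55420330 (minus strand) for Sparc and chr2:180225860-180226109 (minus strand) for Lama5, each 5′ to 3′ on the gene's strand. Capitals mark matches on either strand to the GC box, GGGCGG. They also mark those to the motif named for its letters, the CCAAT box.
Nid1: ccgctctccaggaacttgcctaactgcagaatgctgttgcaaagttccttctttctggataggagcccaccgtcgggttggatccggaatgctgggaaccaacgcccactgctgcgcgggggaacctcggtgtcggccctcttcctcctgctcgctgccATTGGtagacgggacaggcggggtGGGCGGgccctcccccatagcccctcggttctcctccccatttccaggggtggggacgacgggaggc
Sparc: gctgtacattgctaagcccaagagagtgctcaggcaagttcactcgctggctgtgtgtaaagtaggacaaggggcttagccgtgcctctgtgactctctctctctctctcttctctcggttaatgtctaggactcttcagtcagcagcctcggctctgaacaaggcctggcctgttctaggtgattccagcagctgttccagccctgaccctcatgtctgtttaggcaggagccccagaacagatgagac
Lama5: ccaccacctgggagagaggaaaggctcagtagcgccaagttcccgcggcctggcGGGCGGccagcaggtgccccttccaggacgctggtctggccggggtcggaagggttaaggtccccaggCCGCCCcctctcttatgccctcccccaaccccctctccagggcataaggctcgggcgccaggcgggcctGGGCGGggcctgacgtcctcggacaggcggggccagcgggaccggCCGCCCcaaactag
Lama5 held 4 GC boxes, Nid1 held 1 GC box and 1 CCAAT box, and Sparc held neither. Of the 6 members with a sequence 4 held a GC box, as did 32.7% of 32851 windows of the same length, and 2 held a CCAAT box, against 33.8%. The TATA box TATAAA was found in none of the 6 on either strand, against 12.4% of all windows. The E-box CACGTG was likewise in none, against 6.02%, the AP-1 site TGACTCA in none, against 4.46%, and the GATA site AGATAA in none, against 9.99%. No match overlapped one of another motif. A match is a description of the letters alone.

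Values are log2 normalized intensities made by the authors with RMA, in which a difference of 1 is a 2-fold change. Median intensity per array was 5.96 to 6.02, and the number of arrays limits the precision. Arrays of a group correlated at 0.997 to 0.998 over the 13819 tested genes, and the Hprt knockout stood apart, at 0.866 with wild-type against 0.967 to 0.979 for the exon 2 mutant and the trap line. Stem cell markers were bright in all groups: the summed intensity of 10 genes was 54900 to 55410 in wild-type, 63000 to 66020 in the exon 2 mutant, 71200 to 72990 in the Hprt knockout and 65740 to 67330 in the trap line. That of 15 feeder fibroblast markers was 114700 to 115400 in wild-type, 86200 to 86810 in the exon 2 mutant and 92540 to 93700 in the trap line, but 4405 to 4708 in the Hprt knockout, with Lum and Fap under the filter level on both of its arrays. Group means of Hprt itself were 12.08 for wild-type, 12.25 for the exon 2 mutant, 10.04 for the Hprt knockout and 10.74 for the trap line, lower by -2.05 ± 0.05 (adjusted p = 6.19e-08) in the Hprt knockout against wild-type. Those of Gtf2i, in that order, were 10.12, 10.48, 10.90 and 10.09. It was not lower than wild-type in either Gtf2i mutant line, with 0.36 ± 0.05 in the exon 2 mutant (adjusted p = 0.00102) and -0.03 ± 0.05 in the trap line (adjusted p = 0.638). In the Hprt knockout it was higher than wild-type by 0.78 ± 0.05 (adjusted p = 9.65e-06). Against the Hprt knockout, Gtf2i was lower in the trap line by -0.82 ± 0.05 (adjusted p = 9.87e-06) and in the exon 2 mutant by -0.42 ± 0.05 (adjusted p = 0.000348). Whether its probe set reaches the deleted or trapped part is not known here, so the Gtf2i labels are taken as given and were not checked by these values. The 15 primitive and parietal endoderm markers summed to 4605 to 4826 in wild-type, 2954 to 2992 in the exon 2 mutant, 3807 to 3892 in the Hprt knockout and 4889 to 5008 in the trap line, with Afp and Sox17 under the filter level in the exon 2 mutant and Afp in the Hprt knockout. These sums follow the brightest genes, and the list did not move as 1. In the Hprt knockout against wild-type 8 of the 15 were higher and 4 lower, among the latter the bright Plat (-3.17), Thbd (-3.75) and Pdgfra (-1.90). In the trap line against the Hprt knockout these 3 were among 5 higher, and 7 were lower. In bulk RNA, fewer cells of a type and less RNA per cell cannot be told apart, and the part of these markers in the results below was not tested.

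**Figure D1:**
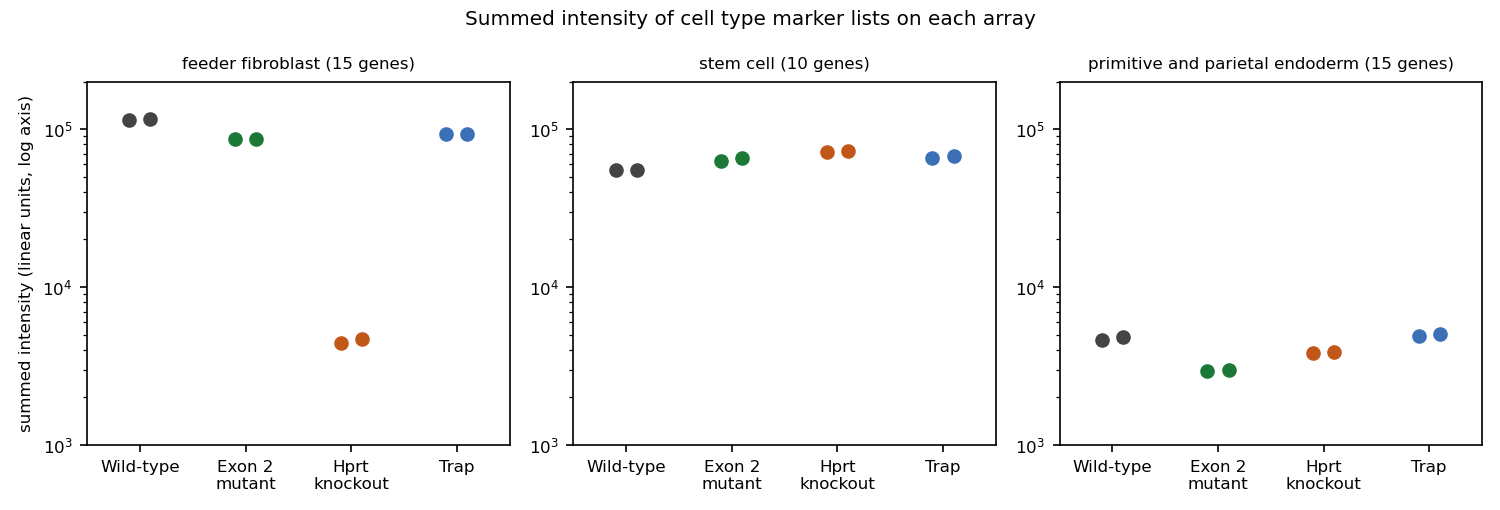
Summed linear intensity of 3 marker lists on each array (log axis; points are the 2 arrays of a group, lower value to the left). Feeder fibroblast markers lie at 86200 or above in 3 groups and at 4405 to 4708 in the Hprt knockout, while stem cell markers lie between 54900 and 72990 in all groups.

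The α chains, which carry the cell-binding end of a laminin, split into opposite patterns. Lama1 encodes the α1 chain, the main α chain of the earliest embryonic basement membranes. Its arrays read 8.78 and 8.80 in wild-type, 7.36 and 7.22 in the exon 2 mutant, 9.60 and 9.59 in the Hprt knockout and 7.60 and 7.60 in the trap line. Both Gtf2i mutant lines were thus low, the Hprt knockout high, and no groups overlapped. For each pair of groups, 73.4% to 85.7% of all tested genes had arrays that did not overlap, so this sets no gene named here apart. Lama1 was lower in the exon 2 mutant than in wild-type by log2 -1.50 ± 0.06 (SE, n = 2 against 2 arrays, limma adjusted p = 7.8e-06), a 2.83-fold difference. The trap line lay below the Hprt knockout at log2 -2.001 ± 0.06 (adjusted p = 2.31e-07) and below wild-type by -1.20 ± 0.06 (adjusted p = 2.59e-05). The Hprt knockout lay above wild-type by 0.81 ± 0.06 (adjusted p = 1.65e-05), and the exon 2 mutant below the trap line by -0.30 ± 0.06 (adjusted p = 0.00483), so that all 4 levels in the order Hprt knockout, wild-type, trap and exon 2 mutant differed from their neighbour.

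Lama4 encodes the α4 chain, found mainly in vessel walls and mesenchymal tissue. Its arrays read 9.66 and 9.74 in wild-type, 9.36 and 9.35 in the exon 2 mutant, 5.70 and 5.68 in the Hprt knockout and 9.54 and 9.64 in the trap line. In the Hprt knockout it lay close to the filter level of on average 5.35, where it stood log2 -4.01 ± 0.06 below wild-type (adjusted p = 9.19e-09), so the 16.1-fold difference depends on the array background. With the mean of both Lama4 probe sets, of which the other lay under the filter level, the difference was -2.09, and that of trap against Hprt knockout 2.08. The trap line exceeded the Hprt knockout by 3.90 ± 0.06 (adjusted p = 1.23e-08) and differed from wild-type by -0.11 ± 0.06, which did not pass (adjusted p = 0.158), though it passed under cyclic loess scaling (-0.19, adjusted p = 0.027). The exon 2 mutant was lower than wild-type by -0.35 ± 0.06 (adjusted p = 0.00201) and lower than the trap line by -0.23 ± 0.06 (adjusted p = 0.0133, and 0.0836 without trap replicate 2). The fall of Lama4 in the Hprt knockout ran with that of the feeder markers, of which 15 of 15 were lower there, by a median of log2 -5.14 against 0.16 for all tested genes. Of 8 endothelial markers, Cdh5, Tie1 and Emcn were under the filter level in every group, and Tek, a receptor of vessel walls, was higher in the Hprt knockout (1.79 ± 0.07 above wild-type, adjusted p = 7.45e-07). Of the 5 tested, 3 were higher there than in wild-type and 2 lower, Esam by -0.62 ± 0.09 (adjusted p = 0.000516) and Kdr by -0.48 ± 0.09 (adjusted p = 0.00259). Over all tested genes 46.4% were higher and 25.1% lower.

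Lama5 encodes the α5 chain, which is widespread in epithelia and is made by stem cells themselves. Its arrays read 8.30 and 8.30 in wild-type, 8.07 and 8.13 in the exon 2 mutant, 8.81 and 8.80 in the Hprt knockout and 8.02 and 8.01 in the trap line. It was high in the Hprt knockout and its groups did not overlap. Lama5 exceeded wild-type there by 0.51 ± 0.05 (adjusted p = 6.31e-05, and by 0.27 under cyclic loess) and was lower in the trap line, against the Hprt knockout, by -0.79 ± 0.05 (adjusted p = 8.47e-06). It was lower than wild-type by -0.20 ± 0.05 in the exon 2 mutant (adjusted p = 0.011) and by -0.29 ± 0.05 in the trap line (adjusted p = 0.00339). The difference between both mutant lines, 0.09 ± 0.05, did not pass (adjusted p = 0.173). The call in the exon 2 mutant was lost without wild-type replicate 1 (adjusted p = 0.0508) or exon 2 mutant replicate 1 (adjusted p = 0.0506). On the second probe set of Lama5 it went the other way, at 0.08 (adjusted p = 0.233), and the trap line's difference from wild-type there was -0.09 (adjusted p = 0.248).

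Of the β chains, which with γ form the coiled stem of the trimer, both were lowest in the Hprt knockout, and Lamb2 was highest in wild-type. Lamb1 encodes the β1 chain of most laminins. It read 11.94 and 11.96 in wild-type, 11.46 and 11.35 in the exon 2 mutant, 11.02 and 11.04 in the Hprt knockout and 11.83 and 11.91 in the trap line. Lamb1 was lower than wild-type by -0.54 ± 0.06 in the exon 2 mutant (adjusted p = 0.00029) and by -0.92 ± 0.06 in the Hprt knockout (adjusted p = 8.67e-06). The trap line exceeded the Hprt knockout by 0.84 ± 0.06 (adjusted p = 1.71e-05), and its difference from wild-type of -0.08 ± 0.06 did not pass (adjusted p = 0.313). Lamb2, whose β2 chain is known from kidney filters and nerve-muscle junctions, read 8.02 and 8.14 in wild-type, 7.51 and 7.27 in the exon 2 mutant, 6.72 and 6.66 in the Hprt knockout and 7.25 and 7.31 in the trap line. Wild-type alone was above all other arrays and the mutant lines overlapped. Lamb2 was lower than wild-type in the exon 2 mutant (-0.69 ± 0.09, adjusted p = 0.000642), in the trap line (-0.80 ± 0.09, adjusted p = 0.000595) and in the Hprt knockout (-1.39 ± 0.09, adjusted p = 8.78e-06), and the trap line exceeded the Hprt knockout by 0.59 ± 0.09 (adjusted p = 0.000799). The exon 2 mutant and the trap line were 0.11 ± 0.09 apart (adjusted p = 0.346).

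Lamc1 encodes the γ1 chain, shared by most laminins and the chain to which nidogen binds. It read 9.87 and 9.93 in wild-type, 9.79 and 9.68 in the exon 2 mutant, 9.88 and 9.94 in the Hprt knockout and 9.38 and 9.44 in the trap line. Its 4 means spanned 0.50, and the trap line was low. Lamc1 was lower in the trap line, against the Hprt knockout, by -0.50 ± 0.06 (adjusted p = 0.000277), and against wild-type by -0.49 ± 0.06 (adjusted p = 0.000938). Its difference between exon 2 mutant and wild-type, -0.17 ± 0.06, missed the threshold (adjusted p = 0.0532), and met it under 6 alternatives. Hprt knockout and wild-type differed by 0.01 ± 0.06 (adjusted p = 0.925), where cyclic loess gave -0.24 (adjusted p = 0.00672) and the second probe set 0.28 (adjusted p = 0.0241), so no direction is given. On that second probe set the trap line's difference from wild-type, -0.21, did not pass (adjusted p = 0.107).

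**Figure D2:**
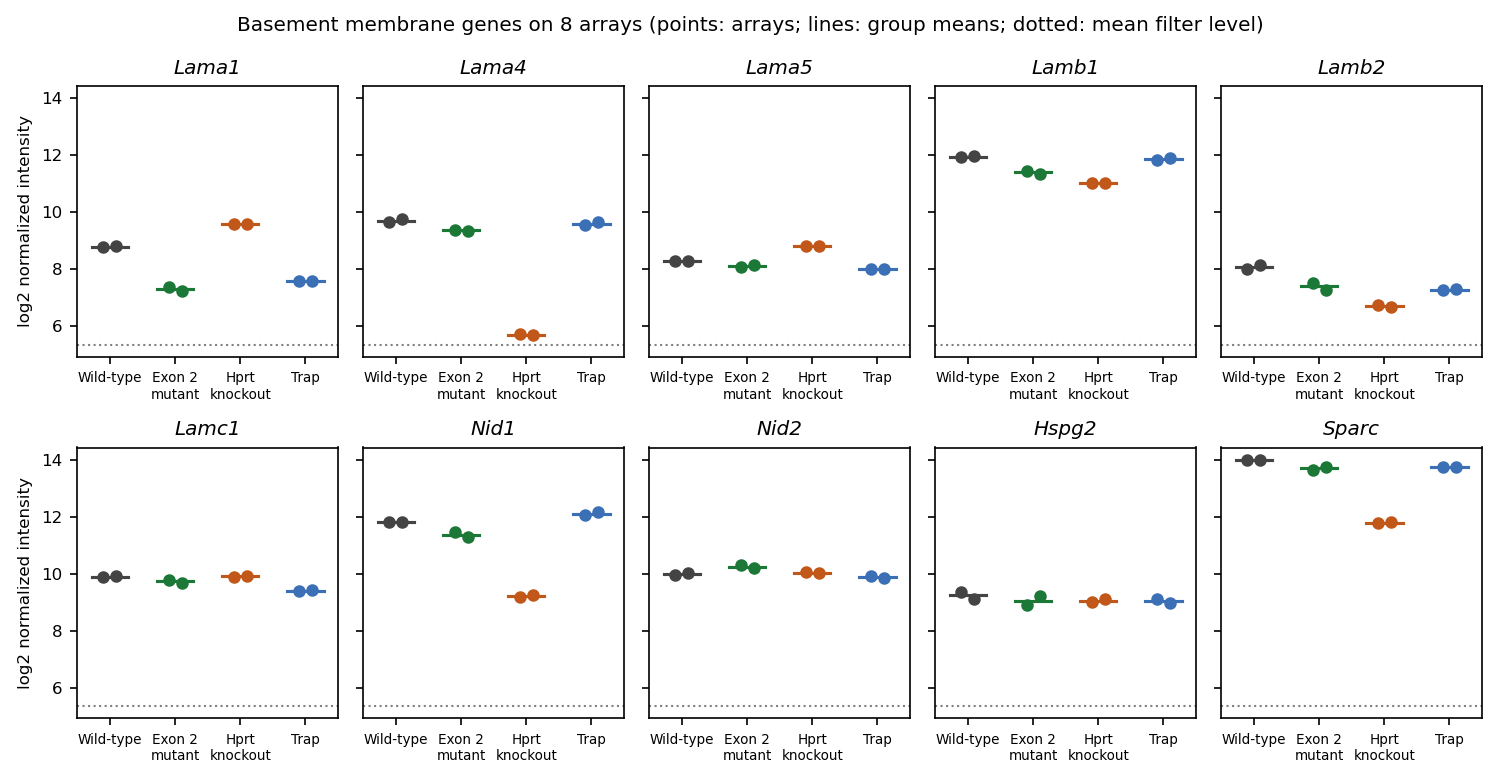
Log2 normalized intensity of the 10 members on 8 arrays (points), with group means (lines) and the mean filter level (dotted). Lama4, Nid1 and Sparc are low in the Hprt knockout, by log2 -4.01, -2.61 and -2.20 against wild-type, while Lama1 and Lama5 are highest there (levels of different genes are not comparable).

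Of the linkers between the laminin and collagen networks, Nid1 changed widely and Nid2 little. Nid1 read 11.83 and 11.83 in wild-type, 11.45 and 11.29 in the exon 2 mutant, 9.18 and 9.26 in the Hprt knockout and 12.05 and 12.15 in the trap line. The Hprt knockout was low, and no groups overlapped. In the Hprt knockout Nid1 was lower, against wild-type, by -2.61 ± 0.07 (adjusted p = 1.45e-07), a 6.09-fold difference, and the trap line exceeded the Hprt knockout by 2.88 ± 0.07 (adjusted p = 1.13e-07). The exon 2 mutant was lower than wild-type by -0.46 ± 0.07 (adjusted p = 0.00159), and lower than the trap line by -0.73 ± 0.07 (adjusted p = 0.00026). The trap line's excess over wild-type of 0.27 ± 0.07 (adjusted p = 0.0221) was lost without wild-type replicate 1 (adjusted p = 0.0877), wild-type replicate 2 (adjusted p = 0.0813) or trap replicate 2 (adjusted p = 0.121).

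Nid2, the paralogue of Nid1, read 9.94 and 10.02 in wild-type, 10.29 and 10.20 in the exon 2 mutant, 10.06 and 10.01 in the Hprt knockout and 9.91 and 9.85 in the trap line. Its 4 means spanned 0.36. It was the only member called higher in the exon 2 mutant against wild-type, at 0.26 ± 0.06 (adjusted p = 0.00896). The call was lost without wild-type replicate 1 (adjusted p = 0.0575) and under cyclic loess (adjusted p = 0.0535). It exceeded the trap line by 0.36 ± 0.06 (adjusted p = 0.00237). The trap line differed by -0.15 ± 0.06 from the Hprt knockout (adjusted p = 0.0575) and by -0.10 ± 0.06 from wild-type (adjusted p = 0.216). The first passed under median centring (adjusted p = 0.043), a stricter filter (adjusted p = 0.0396) and an intensity trend (adjusted p = 0.019), but was 0.02 under cyclic loess. The difference from wild-type was -0.18 under cyclic loess and passed there (adjusted p = 0.0328). Hprt knockout against wild-type gave 0.05 ± 0.06 (adjusted p = 0.496), and -0.20 under cyclic loess (adjusted p = 0.013).

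Hspg2 encodes perlecan, whose heparan sulfate chains hold growth factors in the matrix. On its brightest probe set it read 9.37 and 9.11 in wild-type, 8.88 and 9.22 in the exon 2 mutant, 8.99 and 9.11 in the Hprt knockout and 9.13 and 8.98 in the trap line. All groups overlapped, no difference passed, and with an SE of 0.13 this probe set had the widest spread of the members. The second probe set of Hspg2 read 9.42 and 9.37, 8.996 and 8.92, 8.55 and 8.61, and 9.22 and 9.11 in the same order. There Hspg2 was lower than wild-type by -0.43 in the exon 2 mutant (adjusted p = 0.000939), by -0.81 in the Hprt knockout (adjusted p = 1.9e-05) and by -0.23 in the trap line (adjusted p = 0.022), and the trap line exceeded the Hprt knockout by 0.58 (adjusted p = 0.000126). This probe set was looked at after its values were seen. Against wild-type both probe sets had the same sign in all 3 other groups, and they differed in size and in what passed. With their mean, Hspg2 was lower than wild-type in the exon 2 mutant (-0.31, adjusted p = 0.0136) and in the Hprt knockout (-0.50, adjusted p = 0.000802), and the brightest alone passed in the Hprt knockout under cyclic loess (-0.44, adjusted p = 0.0309).

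Sparc encodes a secreted collagen-binding glycoprotein, abundant in parietal endoderm and in fibroblasts. It read 14.00 and 14.00 in wild-type, 13.65 and 13.74 in the exon 2 mutant, 11.79 and 11.81 in the Hprt knockout and 13.74 and 13.76 in the trap line. The Hprt knockout was low, and the other 3 groups lay between 13.65 and 14.00. In the Hprt knockout Sparc was lower, against wild-type, by -2.20 ± 0.05 (adjusted p = 6.6e-08), a 4.60-fold difference, and the trap line exceeded the Hprt knockout by 1.95 ± 0.05 (adjusted p = 1.38e-07). It was lower than wild-type by -0.30 ± 0.05 in the exon 2 mutant (adjusted p = 0.00226) and by -0.25 ± 0.05 in the trap line (adjusted p = 0.00827, and 0.0517 without trap replicate 1). Both mutant lines differed by -0.06 ± 0.05 (adjusted p = 0.41).

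Probe sets of the same gene were set side by side. The second probe set of Sparc gave -2.33 for Hprt knockout against wild-type, close to the -2.20 of the brightest. Another probe set gave 0.09 (not passed, adjusted p = 0.499 with each probe set tested as a row). That one was dim, at 6.20 to 6.52 on the arrays, where the brightest read 11.79 to 14.00. The probe sets of Nid1 above the filter level on all 8 arrays were lower in the Hprt knockout than in wild-type by -2.61 and -1.93. For trap against wild-type they gave 0.27 and 0.80. The remaining probe set gave -1.88 and -0.84, but it was above the filter level on 2 arrays only, both wild-type. It can thus not speak to a direction. As the excess on the brightest was lost without single arrays, no settled direction is given for Nid1 in the trap line against wild-type. For exon 2 mutant against wild-type the second gave 0.03 for Nid1 (adjusted p = 0.668 with each probe set tested as a row). The probe sets of Lamb1 above the filter level on all 8 arrays were lower in the Hprt knockout, by -0.92, -0.98 and -0.65. The other gave -1.10, but it was above the filter level on 2 arrays only, both wild-type. Its fall was thus built in and is not counted.

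**Figure D3:**
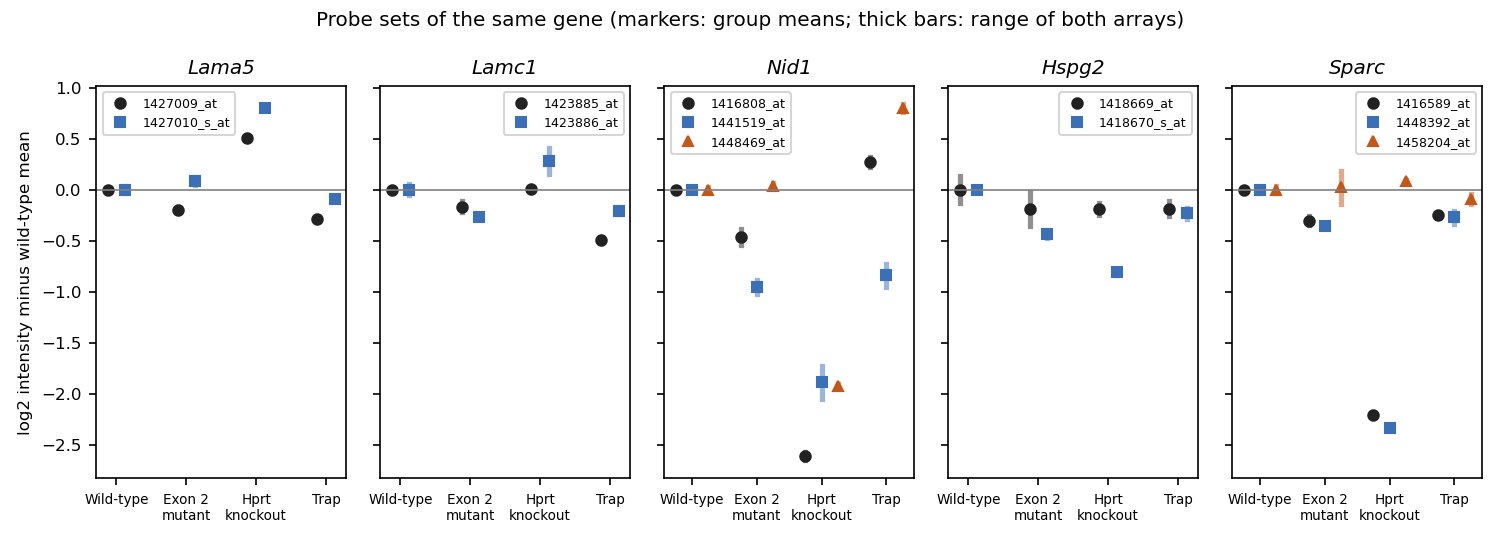
Log2 intensity of each probe set above the filter level on at least 2 arrays, minus its wild-type mean, for 5 members (markers are group means, thick bars the range of both arrays). In the trap line those of Nid1 lie at 0.27, 0.80 and -0.84, the last from a probe set above the filter level on wild-type arrays only. Those of Hspg2 part in the Hprt knockout, at -0.19 and -0.81. The dimmest of Sparc, at 6.20 to 6.52 on the arrays, lies at 0.09 there.

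In the exon 2 mutant against wild-type, basement membrane genes were mostly lower. Of the 10 members 8 passed, 7 lower (Lama1, Lama4, Lama5, Lamb1, Lamb2, Nid1 and Sparc) and 1 higher (Nid2). Over all tested genes 55.5% passed, 23.1% lower and 32.5% higher, so the share called is not far from the background while the direction differs. The median member changed by -0.32, and the median of all tested genes by 0.03. Only Lama1 reached 2-fold, as 5.43% of all genes did. Cyclic loess took the share of higher calls among all calls from 58.4% to 47.7%. Of the feeder fibroblast markers 14 of 15 were lower in the mutant, with a median of -0.50, and of the primitive and parietal endoderm markers 11 of 15 were lower and none higher, with a median of -0.73. The largest falls among the endoderm markers were in Srgn (-2.22 ± 0.08), the endocytic receptor genes Cubn (-1.40 ± 0.11) and Amn (-1.05 ± 0.15), and Sox17 (-1.15 ± 0.13), all past the threshold.

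In the trap line against the Hprt knockout, Lama4, Nid1 and Sparc were far higher and Lama1 far lower. Of the 10 members 8 passed, 5 higher (Lama4, Nid1, Sparc, Lamb1 and Lamb2) and 3 lower (Lama1, Lama5 and Lamc1). Over all tested genes 68.4% passed, 26.6% higher and 41.8% lower. At least 2-fold were 4 members, against 15.2% of all genes. The median member lay 0.42 above the median of all genes (0.29 against -0.13), and 0.45 above it under cyclic loess, which moved the latter by 0.14 and the share of higher calls from 38.9% to 52.5%. All 15 tested feeder markers were higher in the trap line, by a median of 4.87. The endoderm markers were mixed, with 5 higher, among them Thbd (3.98 ± 0.10) and Plat (3.45 ± 0.06), and 7 lower, among them Cubn (-2.64 ± 0.11).

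In the Hprt knockout against wild-type, neither of which carries a Gtf2i mutation, Lama4, Nid1, Sparc and Lamb2 were lower by more than 2-fold. Of the 10 members 7 passed, 5 lower and 2 higher (Lama1 and Lama5), against 71.5% of all tested genes, 25.1% lower and 46.4% higher. At least 2-fold lower were 4 members, against 10.8% of all genes. The median member lay -0.71 from the median of all genes (-0.55 against 0.16), and -0.79 from it under cyclic loess, which moved the latter by -0.16 and the share of higher calls from 64.9% to 49.9%. In the same comparison 7 of 10 stem cell markers were higher and 2 lower (median 0.39), with Fgf4 at 1.98 ± 0.05 and Utf1 at 1.48 ± 0.06, and 8 of 15 endoderm markers were higher and 4 lower (median 0.31). Of 9 trophoblast markers, Cdx2, Elf5 and Gata3 did not pass the filter and were not tested. Of the 6 tested 4 were higher and none lower (median 1.48), with the keratin genes Krt8 at 2.36 ± 0.15 and Krt18 at 2.11 ± 0.09. Eomes (-0.02) and Hand1 (0.27) did not pass. In the exon 2 mutant against wild-type Krt8 was at -1.69 ± 0.15 and Krt18 at -1.32 ± 0.09, while Tfap2c was at 1.12 ± 0.09.

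In the trap line against wild-type, Lama1 and Lamb2 were lower. Of the feeder markers 3 of 15 were higher and 6 lower (median -0.18). Of the 10 members 6 passed, 5 lower (Lama1, Lama5, Lamb2, Lamc1 and Sparc) and 1 higher (Nid1), against 41.1% of all tested genes, 14.6% lower and 26.5% higher. The median member changed by -0.22 and the median gene by 0.05, and cyclic loess took the share of higher calls from 64.6% to 54.1%. Only Lama1 reached 2-fold, against 3.42% of all genes. Of 15 endoderm markers 7 were lower and 4 higher (median -0.12), with Srgn at -1.53 ± 0.08 and Cubn at -1.05 ± 0.11. The difference of the exon 2 mutant from wild-type and that of the trap line from the Hprt knockout share no array. They were unlike for 9 of the 10 members, against 69.7% of all tested genes. The comparisons against wild-type share its arrays, and those with the Hprt knockout share its arrays, so they are not independent of each other.

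**Figure D4:**
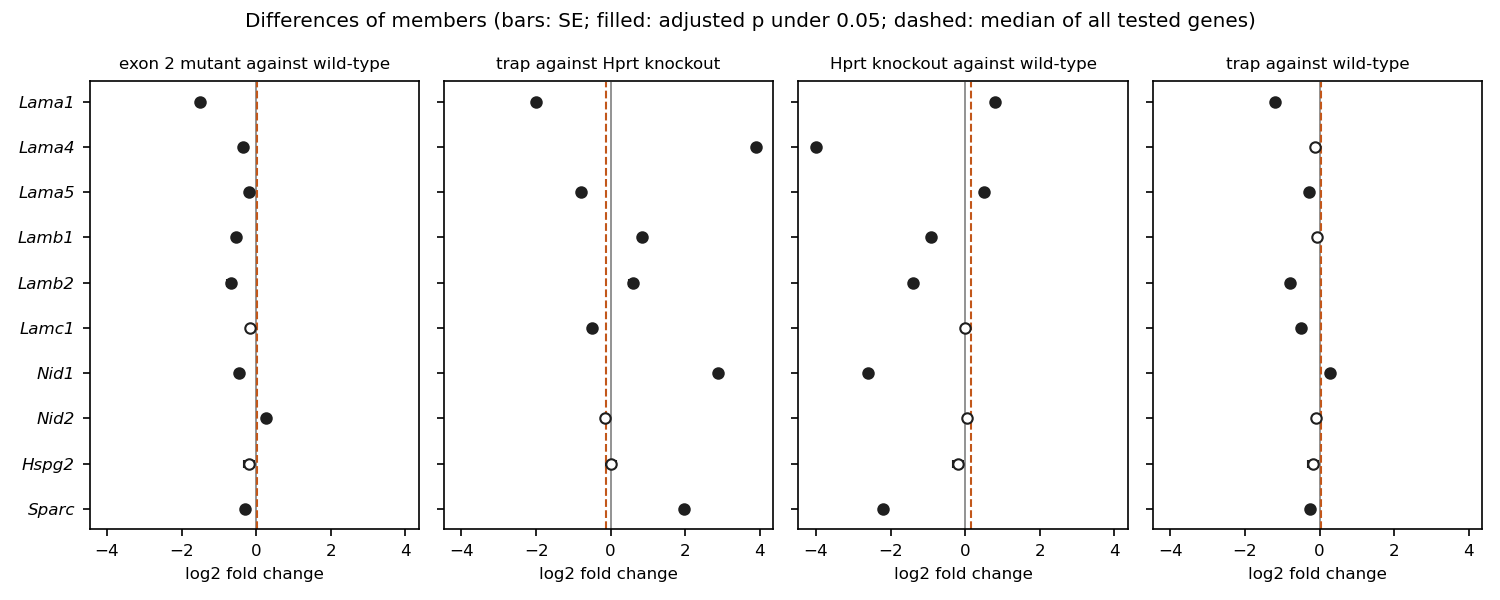
Log2 fold change of each member in 4 comparisons, with SE (mostly smaller than the points), filled where the limma adjusted p is under 0.05, and the median of all tested genes as a dashed line. Lama1 lies at -1.50 in the exon 2 mutant and at -1.20 in the trap line against wild-type, and Lama4 at -4.01 in the Hprt knockout.

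Between both Gtf2i mutant lines Nid1 differed most among the members, at -0.73 in the exon 2 mutant against the trap line. Of the 10 members 6 passed, 4 lower in the exon 2 mutant (Lama1, Lama4, Lamb1 and Nid1) and 2 higher (Lamc1 and Nid2). Over all tested genes 49.2% passed, 24.7% lower and 24.5% higher. The Lamc1 call (0.33 ± 0.06, adjusted p = 0.00405) was lost with the mean of its probe sets (0.14, adjusted p = 0.0818), and on its second probe set the sign turned (-0.06, adjusted p = 0.647). The median member differed by -0.03. Against the Hprt knockout the exon 2 mutant had 9 of 10 members past the threshold, 6 higher and 3 lower. Over all tested genes 61.2% passed, 24.9% higher and 36.3% lower. Values of members follow. Among the members past the threshold, Lama4 was higher by 3.67 ± 0.06, Nid1 by 2.15 ± 0.07 and Sparc by 1.90 ± 0.05. Lama1 was lower by -2.30 ± 0.06 (adjusted p = 1.63e-07). The share of higher calls among all calls there went from 40.7% to 54.6% under cyclic loess, which moved the median gene by 0.11. The call of Lamc1 (-0.17, adjusted p = 0.0425) was lost under 5 of the other settings and whenever 1 of 7 arrays was left out (adjusted p up to 0.62 over all alternatives), and that of Nid2 (0.21, adjusted p = 0.0188) under median centring (adjusted p = 0.052) and without exon 2 mutant replicate 1 (adjusted p = 0.0898) or Hprt knockout replicate 2 (adjusted p = 0.0895).

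Other genes of the basement membrane were described by lists. Each count here and in the paragraphs on further lists stands beside these shares of all tested genes. In the exon 2 mutant against wild-type 23.1% were lower and 32.5% higher, and in the Hprt knockout against wild-type 25.1% and 46.4%. For trap against Hprt knockout 41.8% were lower and 26.6% higher, and for trap against wild-type 14.6% and 26.5%. Of 6 tested basement membrane collagens 3 were lower in the exon 2 mutant than in wild-type and none higher (median -0.55), and all 6 were lower in the Hprt knockout than in wild-type (median -1.77). Col4a1, a chain of the main collagen IV, read 11.83 and 11.88 in wild-type, 11.01 and 10.96 in the exon 2 mutant, 10.43 and 10.44 in the Hprt knockout and 11.30 and 11.32 in the trap line, which put it -0.87 ± 0.05 below wild-type in the exon 2 mutant and -1.42 ± 0.05 in the Hprt knockout. Its partner Col4a2 gave -0.78 ± 0.09 and -2.12 ± 0.09. The groups of both genes did not overlap, with the order wild-type, trap, exon 2 mutant and Hprt knockout. In trap against Hprt knockout 5 of the 6 collagens were higher (median 1.33), and in trap against wild-type 3 were lower and none higher (median -0.36).

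Of 8 tested other laminin chains, netrins and fibulins 4 were lower in the exon 2 mutant than in wild-type and none higher (median -0.24), and in the Hprt knockout 5 were lower and 2 higher than in wild-type (median -0.91). Fbln2, a nidogen-binding fibulin, was lower there by -4.41 ± 0.05 and the α2 chain gene Lama2 by -1.64 ± 0.07. In trap against Hprt knockout 4 were higher and 1 lower (median 0.69), and in trap against wild-type 2 were higher and 2 lower (median -0.02). Of 11 tested proteoglycans and glycoproteins 2 rose and 2 fell in the exon 2 mutant (median 0.00), while in the Hprt knockout against wild-type 3 rose and 6 fell (median -0.61). Frem2, an adhesion protein of embryonic epithelia, was higher there by 3.47 ± 0.14, from a wild-type level under the filter, and Smoc2 lower by -3.89 ± 0.15, to a level under the filter, so that both folds depend on the array background. In trap against Hprt knockout the counts were 5 and 3 (median 0.11), and against wild-type 2 and 4 (median -0.10).

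Of 10 laminin receptors 2 rose and 4 fell in the exon 2 mutant against wild-type (median -0.11), and 5 rose and 4 fell in the Hprt knockout (median 0.27). The integrin β1 gene Itgb1 was lower in both, by -0.78 ± 0.06 and -1.90 ± 0.06, and its laminin-binding partner Itga6 was higher in the Hprt knockout by 0.66 ± 0.05. In trap against Hprt knockout 3 rose and 5 fell (median -0.16), and against wild-type 1 rose and 3 fell (median 0.04). Of 14 tested assembly and cross-linking enzymes 11 fell in the exon 2 mutant (median -0.45) and 14 of 14 in the Hprt knockout (median -1.43), and none rose in either. The lysyl oxidase gene Lox was lower by -0.86 ± 0.05 and -4.93 ± 0.05, and the collagen chaperone gene Serpinh1 was lower in the Hprt knockout by -2.63 ± 0.05. In trap against Hprt knockout 13 rose (median 1.41), and against wild-type 2 rose and 10 fell (median -0.42). In each of these comparisons the feeder markers moved as given above.

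The tested genes most like each member were found by the root mean square difference of 4 group means, each gene centred on its own average. Lama1 was nearest to Amn, an endoderm receptor subunit of the marker list (0.19, where the spread of Lama1 itself over the 4 groups was 0.93), then to Fxyd3 (0.26) and Cyp2c55 (0.28). Lama4 was nearest to Fibin (0.08), Nid1 to Snx9 (0.05), Ly96 (0.06) and Lrp1 (0.07), and Sparc to Ly6e (0.04), Tlr3 (0.05) and the mesenchymal filament gene Vim (0.05). Lamb1 was nearest to Irx2 (0.02) and Lamb2 to Dzip1l (0.02). Among the members, Nid1 and Sparc lay 0.34 apart, with 258 tested genes nearer to Nid1 and 400 nearer to Sparc. Of the members Lama5 was nearest to Lama1, at 0.65, with 262 tested genes nearer to Lama1 and 11867 nearer to Lama5. With 13819 genes and 4 groups such neighbours are a description only, and for Nid2 and Hspg2, whose own spread was 0.13 and 0.08, nearness says little.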

How the data were processed

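Total RNA of 8 stem cell samples was labelled with biotin and hybridised to Affymetrix arrays, per the labels' protocols. The deposited values are log2 intensities of 45101 probe sets, for which the submitters' processing notes name RMA with no version. RMA normalizes arrays to each other by quantiles, so a change of most genes at once is not visible. All value columns matched a sample by name.

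Genes were taken from probe sets with 1 symbol (34945), each gene by its probe set of highest mean. A gene was tested where it lay above the array's 40th percentile on at least 2 of 8 arrays, which left 13819 of 18193. Group means were fitted to all arrays with limma 3.58.1 in R 4.3.3 (lmFit, eBayes, 4 residual degrees of freedom, 6.86 after moderation). P-values are two-sided, adjusted by Benjamini-Hochberg over all tested genes per comparison, threshold 0.05. With 2 against 2 arrays, 0.333 is the smallest p an exact permutation test allows. The fit was tested on simulated data.

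The members and lists were chosen with earlier results of these data known. Named were the 10 members, from each list at most 4 genes per comparison with the largest change past the threshold, and the 3 genes nearest to a member by group means, fewer being printed. Second probe sets and a fit without the Hprt knockout were added after seeing the data. Alternatives were scaling, filter, probe set choice, arrays in the fit, variance trend, replicate block and leaving out each array.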

Additional observations from a re-analysis of the deposited data

Results flagged for a closer look

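A line difference here is that of the exon 2 mutant from wild-type, or of the trap line from the Hprt knockout. Neither separates the mutation from line, batch or feeder signal. These line differences share no array, and the difference between them was tested for each member as a contrast of 4 group means. It passed for 9 of 10 members, 4 with a positive and 5 with a negative difference. Over all tested genes 69.7% passed, 42.6% positive and 27.0% negative. The feeder markers had a negative difference in 15 of 15 (median -5.28). The share of positive calls among all calls went from 61.2% to 48.1% under cyclic loess, which moved the median gene by -0.19. Lama4 differed by -4.24 (adjusted p = 5.14e-08), with line differences of -0.35 and 3.90, and by -2.31 with the mean of its probe sets. Nid1 differed by -3.34 (adjusted p = 3.39e-07), with line differences of -0.46 and 2.88. Sparc differed by -2.26 (adjusted p = 4.17e-07), with line differences of -0.30 and 1.95. Lamb1 differed by -1.38 (adjusted p = 7.19e-06) and Lamb2 by -1.28 (adjusted p = 8.08e-05), each lower in the exon 2 mutant and higher in the trap line. Lama1 was lower in both line differences and differed by 0.50 (adjusted p = 0.0012, and by 0.23 under cyclic loess). Lama5, also lower in both, differed by 0.59 (adjusted p = 0.000179, and by 0.32 under cyclic loess). Lamc1 differed by 0.33 (adjusted p = 0.0105, and 0.622 under cyclic loess) and Nid2 by 0.41 (adjusted p = 0.00367, and 0.174 under cyclic loess). For Hspg2 the difference of -0.19 on its brightest probe set did not pass (adjusted p = 0.409). It passed on the second probe set, at -1.02 (adjusted p = 3.81e-05), and with the mean of both, at -0.60 (adjusted p = 0.00199).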

How the results depend on the processing

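The counts of members called stayed within 1.5 times the reported count under every alternative run. For a reported count of 7 or more of the 10 members no rise could break this bound, so only a fall could show there. Over all alternatives, 7 to 10 members were called between Hprt knockout and wild-type. The 10, found under cyclic loess, were 8 lower and 2 higher, where 5 lower and 2 higher were reported. For the difference between the line differences the count ranged from 7 to 10, where 9 was reported. Leaving out 1 array gave 6 to 8 members in the exon 2 mutant and 7 in the Hprt knockout against wild-type. It gave 5 to 6 in the trap line against wild-type and in the exon 2 mutant against the trap line. The count was 8 in trap against Hprt knockout, 7 to 8 for exon 2 mutant against Hprt knockout and 9 for the difference between the line differences. With the replicate number as a block, 69 of 70 member results kept their call and Lamc1 in exon 2 mutant against Hprt knockout (-0.17) lost it. Deviations of same-numbered arrays correlated at -0.275 to 0.175. With 1 deviation per group, this cannot settle whether same-numbered samples were processed together. Signs turned as follows. Under cyclic loess, Lamc1 (-0.24) and Nid2 (-0.20) in Hprt knockout against wild-type, Nid2 in trap against Hprt knockout (0.0178) and Hspg2 in exon 2 mutant against Hprt knockout (0.14) did so. Hspg2 did under median centring in trap against Hprt knockout (-0.0195) and by the mean of its probe sets in exon 2 mutant against Hprt knockout (0.19). With the second probe set, chosen after seeing the data, Lama5 (0.0842) and Nid1 (0.0349) turned in exon 2 mutant against wild-type, Lamb1 in trap against wild-type (0.0011), Lamc1 in exon 2 mutant against trap (-0.0552) and Hspg2 in exon 2 mutant against Hprt knockout (0.37). With 1 array left out, results that had not passed turned at least once: Hspg2 in trap against Hprt knockout (range -0.0737 to 0.075), in exon 2 mutant against trap (-0.17 to 0.17) and against Hprt knockout (-0.17 to 0.17), Lamc1 in Hprt knockout against wild-type (-0.0243 to 0.0383) and Lamb2 in exon 2 mutant against trap (-0.0075 to 0.23). The cause was not tested. Folds of genes near the filter level, such as Lama4 in the Hprt knockout, are limited by the array background.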
